A study of Mus musculus with 2 samples.

Results

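Among 1783 kept mouse embryonic stem cells cultured in LB medium, 601 cells met a rule that asked for transcripts of naive pluripotency and allowed few of chosen mesoderm and formative genes (33.7%, exact binomial 95% interval 31.5 to 36.0). They were chosen by their counts of unique molecular identifiers (UMIs, 1 per captured RNA molecule). A cell needed at least 6 UMIs of Klf4, Nanog, Tfcp2l1 and Zfp42 together, at most 1 UMI of T, Mesp1, Hand1 and Foxf1, and at most 1 UMI of Fgf5 and Pou3f1. Cells in the top 10% of LB cells for their share of Calb2, Lrrc31, Nkx6-2, Pgc, S100a13, Fabp3 and Ly6g6e UMIs were left out. Of the 1783 cells, 828 reached the naive minimum, 776 of these passed the mesoderm limit, 747 also passed the formative limit, and 601 were left after the last step.

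The cells belong to a droplet single-cell RNA experiment on the R1 line with 2 libraries, each taken at 72 hours from N2B27 cultures. LB medium held the cytokine LIF and the growth factor BMP4, and its cells grew on gelatin. LBPXRS medium held the same 2 factors with PD0325901 (an inhibitor of MEK, upstream of ERK), Xav939 (a tankyrase inhibitor that lowers WNT signalling), SB431542 (an inhibitor of the NODAL and activin receptors) and a resorcyclic lactone, whose target the labels do not name, and its cells grew on fibronectin. By its title the study asks how the FGF, TGF-beta and WNT pathways limit a totipotent response to BMP4, and medium and substrate cannot be told apart.

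Naive pluripotency is the state of the epiblast before implantation, held in culture by LIF acting through STAT3 and by a network of transcription factors that includes Klf4, Nanog, Tfcp2l1, Esrrb and Klf2. Zfp42, also called Rex1, is a zinc finger gene widely used as a reporter of this state. Cells that leave it first lower these factors and raise formative genes such as Otx2, Fgf5, Pou3f1 and Dnmt3b, and ERK signalling from FGF4 promotes that exit.

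The 4 genes that chose the cells were not counted equally. Zfp42 (ENSMUSG00000051176, chromosome 8) supplied 78.6% of the marker UMIs of the naive-like cells, Nanog (ENSMUSG00000012396, chromosome 6) 11%, Klf4 (ENSMUSG00000003032, chromosome 4) 6.54% and Tfcp2l1 (ENSMUSG00000026380, chromosome 1) 3.82%. Most UMIs counted towards the minimum were thus those of Zfp42, and the sequence before its start is shown with that of Nanog. How membership would change without Zfp42 was not tested. Each is the 250 bases before the RefSeq transcription start in build GRCm38.p6, 5′ to 3′ on the gene's own strand, with motif matches in capitals: TTTGCAT, the octamer bound by POU factors such as OCT4, in both; ACAATG, a SOX motif, in Nanog; and GGGTGTG, a KLF motif read on the other strand, in Zfp42. The Zfp42 window is chr8:43307010-43307259 on the minus strand and the Nanog window is chr6:122707239-122707488 on the plus strand.

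Zfp42: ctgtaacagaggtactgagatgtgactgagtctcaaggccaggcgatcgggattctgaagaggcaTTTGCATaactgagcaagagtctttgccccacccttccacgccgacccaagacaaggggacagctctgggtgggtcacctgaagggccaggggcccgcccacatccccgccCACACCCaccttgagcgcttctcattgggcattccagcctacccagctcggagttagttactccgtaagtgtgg
Nanog: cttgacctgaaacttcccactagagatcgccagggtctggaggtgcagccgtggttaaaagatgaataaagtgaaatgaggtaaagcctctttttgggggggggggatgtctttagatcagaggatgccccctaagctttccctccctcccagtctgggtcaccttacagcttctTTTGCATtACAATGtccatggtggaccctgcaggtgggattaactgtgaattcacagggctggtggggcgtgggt

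In Nanog the octamer lay 75 to 69 bases before the start and the SOX motif 67 to 62 bases before it, on the same strand. RefSeq lists another Nanog start downstream, from which the same octamer lies 151 to 145 bases and the same SOX motif 143 to 138 bases away. In Zfp42 the octamer lay 185 to 179 bases before the start. On either strand, TTTGCAT was present in 4.12% of 32851 promoter windows of this length, ACAATG in 10.7% and GGGTGTG in 6.93%. The windows of Klf4 and Tfcp2l1 held no match to these letters, nor to AAGGTCA (ESRRB, 4.08% of windows) or TTCNNNGAA (STAT, 7.02%). A match describes the letters in the window and is not a bound site.

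The naive-like cells held a median of 28 UMIs of the 4 markers, with an interquartile range of 18 to 40 and a range of 6 to 100. The other 1182 LB cells held a median of 2. All 4 markers were seen in 241 naive-like cells, 3 in 221 and 2 in 110, while 29 cells had a single marker, which was Zfp42 in 24 and Nanog in 5. Tfcp2l1 was at 0 UMIs in 252 cells, Klf4 in 201, Nanog in 68 and Zfp42 in 7. The limits used raw UMIs, and depth differed with membership; its part in the choice of cells was not tested. Naive-like cells had a median of 27569 UMIs (interquartile range 22656 to 32658), 4510 genes and 2.84% mitochondrial UMIs, against 24358 UMIs, 4511.5 genes and 2.65% in other LB cells. The share of naive-like cells was 20.2% in the shallowest quartile of LB cells, then 32.8%, 40.1% and 41.7%. Only 10 barcodes occurred in both deposited libraries, and 3 of them were naive-like cells.

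The libraries also differed by chromosome. Y-linked genes had 1029 UMIs in 67.4% of naive-like cells, a share of 64.5% in other LB cells, and 1 UMI in LBPXRS. The median log2 ratio of LBPXRS to naive-like cells, over genes with a mean of at least 20 CPM, was -0.49 on chromosome 8 and -0.59 on chromosome 11, against -0.07 to 0.12 on the other chromosomes. The labels do not say whether both libraries came from the same subculture of R1, and a difference between subcultures cannot be told apart from the media in any comparison with LBPXRS. Without the genes of chromosomes 8, 11 and Y, the naive list had a median of 0.36 for LBPXRS over naive-like cells, in place of 0.34, and the core pluripotency list -1.75, in place of -1.66. The genes at least 2-fold apart then numbered 610 higher and 421 lower in LBPXRS, in place of 674 and 481, out of fewer genes.

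Markers of other cell types were checked in the chosen cells. All 12 markers of a naive list were detected, 8 of them not used to choose the cells, with a summed level of 2233 UMIs per 1e+06 UMIs (CPM; exact Poisson 95% interval 2210.2 to 2256), against 566 CPM in other LB cells. The 4 genes of the rule made up 1097 CPM of the first sum and 214 CPM of the second, so the sums were in part set by the choice of cells. The 9 mesoderm markers summed to 9.47 CPM (8.05 to 11.1), with Kdr at 0, against 422 CPM in other LB cells. Of these sums, the 4 mesoderm genes capped by the rule made up 4.95 and 356 CPM, so most of that gap was fixed by the choice of cells. The 7 trophoblast markers summed to 13 CPM with Elf5 at 0, the 6 primitive endoderm markers to 1.39 CPM with Foxa2 at 0, and the 7 fibroblast markers to 7.66 CPM with Lum, Dcn and Postn at 0. The 4 germ cell markers summed to 28.8 CPM, with none at 0, against 13.6 CPM in other LB cells. None of the 6 measured markers of the 2-cell-like, totipotent state, among them Zscan4c, Zscan4d and Zfp352, had a UMI in the naive-like cells. By counting error alone, the upper bound of their summed level was 0.222 CPM. They had no UMI in other LB cells or in LBPXRS either, so whether these genes could be detected here was not measured. How reads shared between similar genes were counted is not stated. Kdr, a receptor of mesoderm, was at least 24.1-fold higher in other LB cells, taking 3 UMIs as the floor of the naive-like cells. The 7 formative or primed markers summed to 142 CPM, against 252 CPM in other LB cells. Of these sums, Fgf5 and Pou3f1, capped by the rule, made up 2.96 and 48.5 CPM, so part of that gap was fixed by the choice of cells.

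Other naive genes were far higher in these cells than in the remaining LB cells. Both groups come from the same library and the same UMIs chose them, so this is a description with no test, and intervals here and below cover counting error only. Esrrb (ENSMUSG00000021255), an orphan nuclear receptor of the naive network, stood at 46.0 CPM (42.8 to 49.3) in naive-like cells, 9.93 CPM (8.81 to 11.1) in other LB cells and 62.6 CPM (60.5 to 64.8) in LBPXRS. Klf2 (ENSMUSG00000055148), a Krüppel-like factor, stood at 541 CPM (529 to 552), 137 CPM (133 to 141) and 337 CPM (332 to 342). Dppa3 (ENSMUSG00000046323), which protects maternal methylation marks after fertilisation, stood at 243 CPM (235 to 250.4), 59.6 CPM (56.8 to 62.5) and 38.9 CPM (37.2 to 40.6). Among these 3 groups, Esrrb thus had its highest level in LBPXRS, whereas Klf2 and Dppa3 had theirs in the naive-like LB cells.

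Over the 20 naive genes outside the rule, the median log2 ratio of naive-like to other LB cells was 1.71, beside -0.18 over the 7535 genes with at least 10 CPM in either group. By size, 16 of 18 such naive genes were at least 2-fold higher and 0 lower. Of all genes tested, 4.49% passed 2-fold upward, 9.94% downward and 14.4% in either direction. The rule used this contrast, so nothing is read from that count. The largest of these log2 ratios were 2.48 for Nr5a2, a nuclear receptor able to stand in for OCT4 in reprogramming, 2.28 for Tcl1, a co-activator of AKT, and 2.20 for Nr0b1. Tbx3 (28.3 against 19.6 CPM) and Prdm14 (5.91 against 4.01 CPM) differed little, and Gbx2 was lower (2.41 against 3.77 CPM). Scaling by TMM moved the median of all genes to 0.02 and the share of higher genes among those differing 2-fold from 31.1% to 45.5%.

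The contrast depended on which other LB cells were used. The other LB cells were split in turn, each cell entering the first group that took it. Against the 641 cells with 2 or more UMIs of the streak and mesoderm genes the naive list had a median of 3.20. Against the 148 of the remaining cells with 2 or more UMIs of Fgf5 and Pou3f1 it had 2.21. Against the next 173 cells, high for the Calb2 group, it was -0.15, and against the last 220, which were within every limit but held under 6 naive UMIs, it was 2.17. The cells of the Calb2 group carried Esrrb at 49.1 CPM, Klf2 at 611 CPM and Zfp42 at 635 CPM. The formative list had a median log2 ratio of 0.71 for naive-like cells over this group, beside 0.07 over all genes. The lists of ERK, WNT and BMP targets described below had medians of 0.33, 0.03 and 0.30 there. Dnmt3b, a DNA methyltransferase, stood in the group at 18.9 CPM (14.8 to 23.7) against 73.7 CPM (69.6 to 78.0), and Otx2 at 30.7 against 50.8 CPM. The BMP target Id1 stood at 34 CPM (28.5 to 40.2) against 75.3 CPM (71.2 to 79.6). When only other LB cells within both lineage limits were used, the naive median was 0.55 in place of 1.71, and the counts of genes at least 2-fold higher and lower were 59 and 275 in place of 338 and 749. In the same setting the medians described below were -0.10 in place of -0.55 for formative genes, -0.07 in place of -0.44 for ERK targets, -0.67 in place of -1.31 for WNT targets and -1.05 in place of -1.75 for BMP targets.

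**Figure D1:**
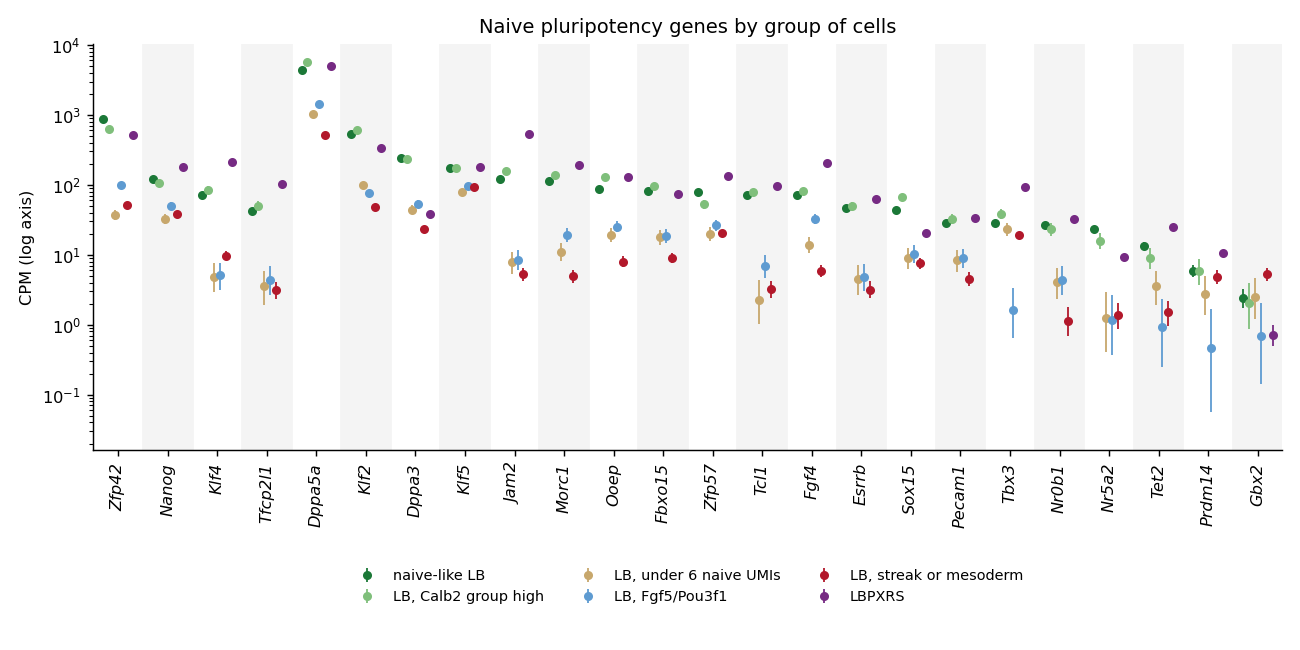
CPM (y axis, log scale) of the 4 marker genes of the rule and 20 further naive genes (x axis) in 6 groups of cells, with exact Poisson 95% intervals as bars. Naive-like LB cells, the Calb2 group and LBPXRS lie together above the other LB groups for most genes, with Gbx2, Tbx3 and Klf5 among the least separated.

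Among the genes with the largest ratios to other LB cells outside the lists, Hsd17b14 (ENSMUSG00000030825), a steroid dehydrogenase family gene, stood at 195 CPM (188 to 202) in naive-like cells, 34.6 CPM (32.5 to 36.8) in other LB cells and 33.1 CPM (31.6 to 34.7) in LBPXRS. Mylpf, a myosin light chain gene, stood at 97.3, 17.9 and 25.4 CPM, and the zinc finger gene Zfp981 at 53.7, 9.62 and 8.16 CPM. Gm46332, a predicted gene, had the largest log2 ratio in this contrast, 3.04. The Calb2 group was nearer to the naive-like cells, with Hsd17b14 at 126 CPM, Mylpf at 89.4 CPM and Zfp981 at 34.5 CPM. Gtsf1l stood at 173, 36.0 and 171 CPM, so that its level in LBPXRS was near that of the naive-like cells, while Hsd17b14, Mylpf and Zfp981 had lower levels there. Among the genes with the smallest ratios, the caudal factor Cdx2 stood at 0.784 CPM against 70.7, the WNT enhancer Rspo3 at 0.844 against 54.7, the imprinted RNA H19 at 6.75 against 230.1, the keratin Krt19 at 5.25 against 165, the interferon-induced gene Isg15 at 3.80 against 95.1, the myelin protein gene Pmp22 at 1.15 against 53.9 and the streak ligand Fgf8 at 7.72 against 174 CPM. The 32 naive-like cells with 6 or 7 marker UMIs held 55 of the Fgf8 UMIs (95.1 CPM), and the other 569 stood at 4.56 CPM. All 7 streak and mesoderm genes outside the rule with at least 10 CPM in either group were at least 2-fold lower, beside 9.94% of all genes. The median over the 15 with a mean of at least 1 CPM was -2.36. The 17 genes of this list summed to 19.8 CPM in naive-like cells and 351 CPM in other LB cells. The 7 genes thus reached 10 CPM mainly through the other LB cells, 641 of which held 2 or more UMIs of the mesoderm genes of the rule. Their count was largely set by the choice of cells, and nothing is read from it.

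Core pluripotency genes were compared over the same 3 groups. Pou5f1, which encodes OCT4, stood at 903 CPM (889 to 918) in naive-like cells, 613 CPM (604 to 622) in other LB cells and 989.9 CPM (981 to 998) in LBPXRS. Sox2, its partner, stood at 229 CPM (222 to 236), 61.9 CPM (59.0 to 64.8) and 232 CPM (228 to 236). Utf1 (ENSMUSG00000047751), a chromatin-associated factor, stood at 545 CPM (534 to 557), 209.5 CPM (204 to 215) and 74.3 CPM (72.0 to 76.7). The Sox2 intervals of naive-like cells and LBPXRS overlapped, and Pou5f1 was slightly higher in LBPXRS, while Utf1 had a log2 ratio of -2.86. The core list had a median of 0.56 against other LB cells, with 4 of 10 genes at least 2-fold higher, beside 4.49% of all genes. It had 0.63 against other LB cells within both lineage limits. By group it had 0.91 against streak or mesoderm cells, -0.10 against cells grouped by Fgf5 and Pou3f1, 0.57 against the Calb2 group and 0.62 against cells under 6 naive UMIs. It had -1.66 for LBPXRS over naive-like cells, with 6 of 10 genes at least 2-fold lower, beside 6.61% of all genes. Dppa2 and Dppa4, a pair of SAP-domain proteins that keep developmental promoters open, stood at 55.7 and 98.5 CPM in naive-like cells, 11.6 and 32.0 CPM in other LB cells and 2.97 and 28.9 CPM in LBPXRS.

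Between LBPXRS and the naive-like LB cells, naive genes differed in both directions. There was 1 library per condition, so no test across samples was possible, and a difference can be that of the libraries. Of 7281 genes with at least 10 CPM in either group, LBPXRS exceeded the naive-like cells 2-fold or more for 9.26% and lay 2-fold or more under them for 6.61%, together 15.9%. The median log2 ratio over all was -0.02. The naive genes outside the rule had a median of 0.34, with 3 of 19 at least 2-fold higher and 3 lower. The higher genes were Jam2, an adhesion receptor (531 CPM in LBPXRS against 122 CPM), Tbx3, a T-box factor (91.7 against 28.3 CPM), and Fgf4, the ligand of the ERK pathway in these cells (205 against 70.9 CPM). The lower genes were Dppa3, Nr5a2 (9.20 against 23.1 CPM) and Sox15 (20.5 against 43.9 CPM).

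The 4 genes of the rule also went both ways. Klf4 stood at 212 CPM (208 to 216) in LBPXRS and 71.8 CPM (67.8 to 76) in naive-like cells, Tfcp2l1 at 102 CPM (99.0 to 104) and 41.9 CPM (38.9 to 45.2), and Nanog at 177 CPM (173 to 181) and 121 CPM (116 to 127). Zfp42 was the exception, at 515 CPM (509 to 521) in LBPXRS and 862 CPM (848 to 877) in the naive-like cells, where it supplied most of the marker UMIs. Zfp42 and Klf2 lie on chromosome 8 and Sox15 on chromosome 11, both shifted as a whole in LBPXRS, and their own ratios cannot be told apart from that shift.

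**Figure D2:**
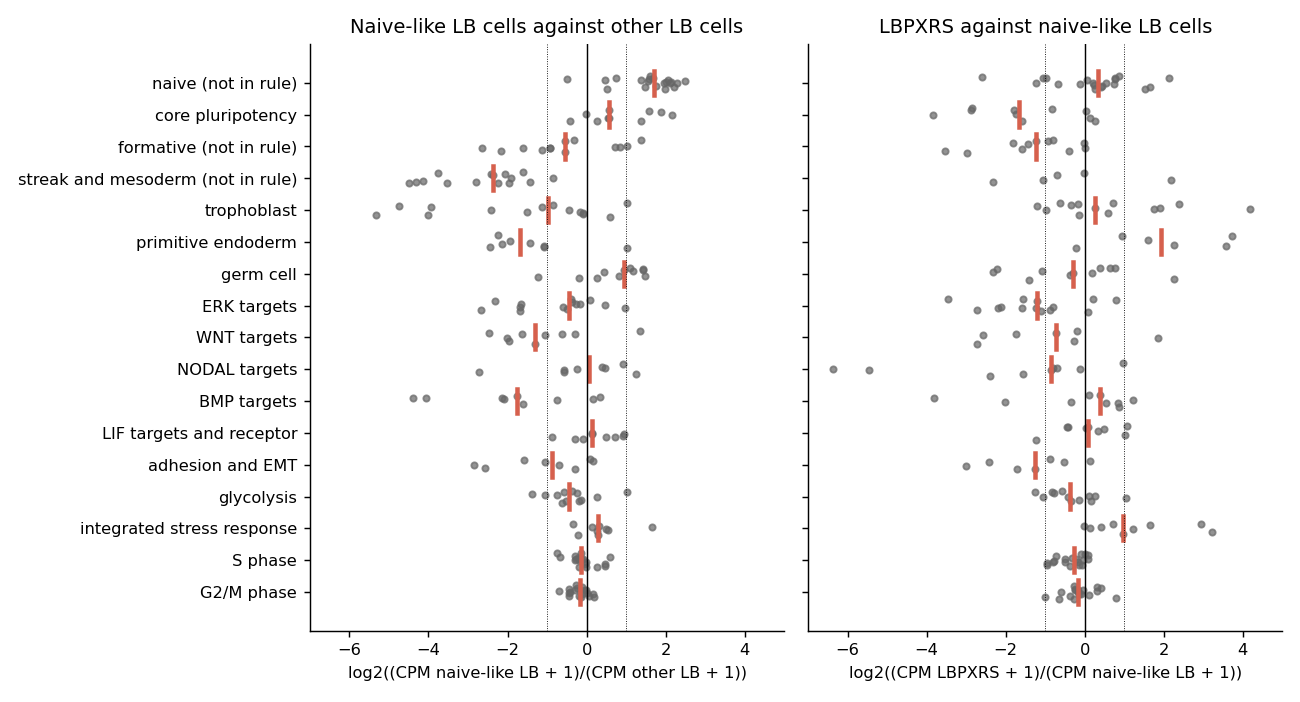
Log2 ratios with a pseudocount of 1 CPM (x axes) for the genes of 17 lists (y axis), for naive-like against other LB cells (left) and LBPXRS against naive-like LB cells (right). Each grey point is a gene with a mean CPM of at least 1, red bars are medians over at least 6 genes, and dotted lines mark 2-fold; the naive list sits at 1.71 on the left and 0.34 on the right.

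Shares of cells were compared after thinning each cell to 10000 UMIs, which left out 17 naive-like cells, 18 streak or mesoderm LB cells and 196 LBPXRS cells. Median depths before thinning were 27569 UMIs in naive-like cells, 19058 in LBPXRS and 24941 in streak or mesoderm LB cells. These last cells served as a comparison low in naive transcripts and not as a clean background, since they held a median of 1 and up to 78 UMIs of the 4 markers. Esrrb was found in 36.8% of naive-like cells (32.9 to 40.9), 45.4% of cells in LBPXRS (43.5 to 47.4) and 2.57% of streak or mesoderm cells. Without thinning these shares were 66.6%, 65.3% and 5.93%. For Klf4 the share was 42.5% of naive-like cells (38.4 to 46.6), 79.1% of cells in LBPXRS (77.4 to 80.7) and 7.38% of streak or mesoderm cells, against unthinned shares of 66.6%, 87.1% and 16.7%. Dppa3 went the other way, with 76.5% (72.9 to 79.9), 25% (23.3 to 26.7) and 13.6%, or 88.5%, 36.2% and 20.1% without thinning. The Esrrb and Dppa3 shares of naive-like cells were above those of the streak or mesoderm cells of the same library; for Klf4, a gene of the rule, such a difference was set by the choice of cells.

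Genes of the formative list differed in their order among the groups. Dnmt3b (ENSMUSG00000027478) stood at 73.7 CPM (69.6 to 78.0) in naive-like cells, 139.8 CPM (136 to 144) in other LB cells and 5.48 CPM (4.86 to 6.15) in LBPXRS. Otx2, a homeobox factor of the formative epiblast, stood at 50.8, 30.4 and 38.3 CPM, and the kinase gene Pim2 at 16.5, 109.6 and 16.3 CPM. Among other LB cells, those grouped by Fgf5 and Pou3f1 stood above the naive-like cells in each, at 67.2 CPM for Otx2, 478 CPM for Dnmt3b and 316 CPM for Pim2. The 32 naive-like cells with 6 or 7 marker UMIs carried Pim2 at 173 CPM and the other 569 at 10.9 CPM. Among DNA methylation enzymes and their partners, Dnmt3l, the regulatory partner of the de novo methyltransferases, stood at 59.9 CPM (56.3 to 63.8) in naive-like cells, 13.3 CPM (12.0 to 14.7) in other LB cells and 12.9 CPM (11.9 to 13.9) in LBPXRS. The formative list without Fgf5 and Pou3f1 had a median of -0.55 against other LB cells. In it 2 of 10 genes were at least 2-fold higher and 2 lower, beside 4.49% and 9.94% of all genes. It had -1.22 for LBPXRS over naive-like cells, with 0 of 9 genes higher and 5 lower, beside 9.26% and 6.61% of all genes. The demethylase gene Tet1 stood at 119 CPM in naive-like cells and 109 CPM in LBPXRS, against 39.2 CPM in other LB cells.

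Targets of the pathways inhibited in LBPXRS were compared next. Here and below, counts of 2-fold genes stand beside 4.49% of all genes higher and 9.94% lower in naive-like than in other LB cells. For LBPXRS over naive-like cells these shares were 9.26% and 6.61%. Among ERK targets, Dusp6, an ERK phosphatase, stood at 7.06 CPM (5.84 to 8.46) in naive-like cells, 24.4 CPM (22.6 to 26.2) in other LB cells and 0.868 CPM (0.633 to 1.16) in LBPXRS. The immediate early gene Egr1 and the ETS factor Etv5 did not follow the order of Dusp6 within LB. Egr1 stood at 19.5 CPM (17.4 to 21.7), 13.7 CPM (12.4 to 15.1) and 0.849 CPM (0.617 to 1.14), and Etv5 at 90.6 CPM (86.1 to 95.3), 45.7 CPM (43.3 to 48.3) and 38.5 CPM (36.8 to 40.2), with the highest level in naive-like cells. The ERK list had a median of -0.44 against other LB cells, with 0 of 11 genes at least 2-fold higher and 5 lower, and -1.22 for LBPXRS over naive-like cells, with 0 of 6 higher and 4 lower. The ERK inhibitor gene Spry4 had 101 UMIs in naive-like cells and 4 in LBPXRS.

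The WNT targets Axin2 and Sp5 were lower in naive-like than in other LB cells and lower again in LBPXRS. Axin2, a feedback inhibitor, stood at 9.53 CPM (8.10 to 11.1) in naive-like cells, 20.9 CPM (19.3 to 22.7) in other LB cells and 0.579 CPM (0.391 to 0.826) in LBPXRS. Sp5, a direct target, stood at 5.61 CPM (4.53 to 6.87), 25.5 CPM (23.7 to 27.4) and 0.116 CPM (0.0425 to 0.252). Notum, a secreted inhibitor of WNT ligands, was the exception within LB, at 12.3, 4.22 and 2.97 CPM. The WNT list had a median of -1.31 against other LB cells (3 of 6 genes at least 2-fold lower, 1 higher). Its median was -0.73 for LBPXRS over naive-like cells over 7 genes, of which only 2 reached 10 CPM and 1 was at least 2-fold lower. Axin2 and Notum lie on chromosome 11.

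The NODAL antagonists Lefty1 and Lefty2 had the largest log2 ratios between LBPXRS and naive-like cells of all signalling targets listed, -5.46 and -6.38. Lefty2 (ENSMUSG00000066652) stood at 103 CPM (98.4 to 108) in naive-like cells, 54.0 CPM (51.3 to 56.7) in other LB cells and 0.251 CPM (0.134 to 0.429) in LBPXRS. Lefty1 (ENSMUSG00000038793) stood at 52.2 CPM (48.8 to 55.8), 78.7 CPM (75.5 to 82.0) and 0.212 CPM (0.106 to 0.380). In LBPXRS these were 13 and 11 UMIs in all. Both are close paralogs on chromosome 1, and how shared reads were counted is not stated. Nodal itself, at 22.1, 16.5 and 12.2 CPM, and its co-receptor Tdgf1, at 532, 387 and 295 CPM, differed much less. The NODAL list had a median of 0.07 against other LB cells, which ran from -0.30 to 0.27 over the alternative settings, and -0.85 for LBPXRS over naive-like cells, with 0 of 7 genes at least 2-fold higher and 3 lower.

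BMP4 was in both media, and BMP targets differed in both directions between LBPXRS and the naive-like cells. Id1 (ENSMUSG00000042745), an inhibitor of bHLH factors, stood at 75.3 CPM (71.2 to 79.6) in naive-like cells, 233 CPM (227 to 238) in other LB cells and 17.8 CPM (16.7 to 19) in LBPXRS. Id3 (ENSMUSG00000007872) stood at 102 CPM (97.5 to 107), 173 CPM (168 to 178) and 6.33 CPM (5.66 to 7.05). Id2 and Id4 were higher in LBPXRS than in naive-like cells, at 33.4 against 18.1 CPM and 15 against 5.85 CPM. After thinning, Id1 was found in 33.0% of naive-like cells (29.2 to 37.0), 9.80% of cells in LBPXRS and 61.6% of streak or mesoderm cells, or 53.4%, 15.1% and 76.8% without thinning. Id3 was found in 44.7%, 3.27% and 49.6%, or 62.9%, 4.62% and 61.6% without thinning. No LB group lacked Id1 or Id3, so their background from free RNA was not measured. The BMP list had a median of -1.75 against other LB cells, with 6 of 7 genes at least 2-fold lower, and 0.39 for LBPXRS over naive-like cells, with 1 of 5 genes higher and 2 lower. Against the Calb2 group the first median was 0.30. It was -1.29 against the cells grouped by Fgf5 and Pou3f1, -2.03 against those under 6 naive UMIs and -2.11 against streak or mesoderm cells. The LIF list, also shared by both media, had medians of 0.14 and 0.09, the first running from -0.10 to 0.61 over the alternative settings.

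**Figure D3:**
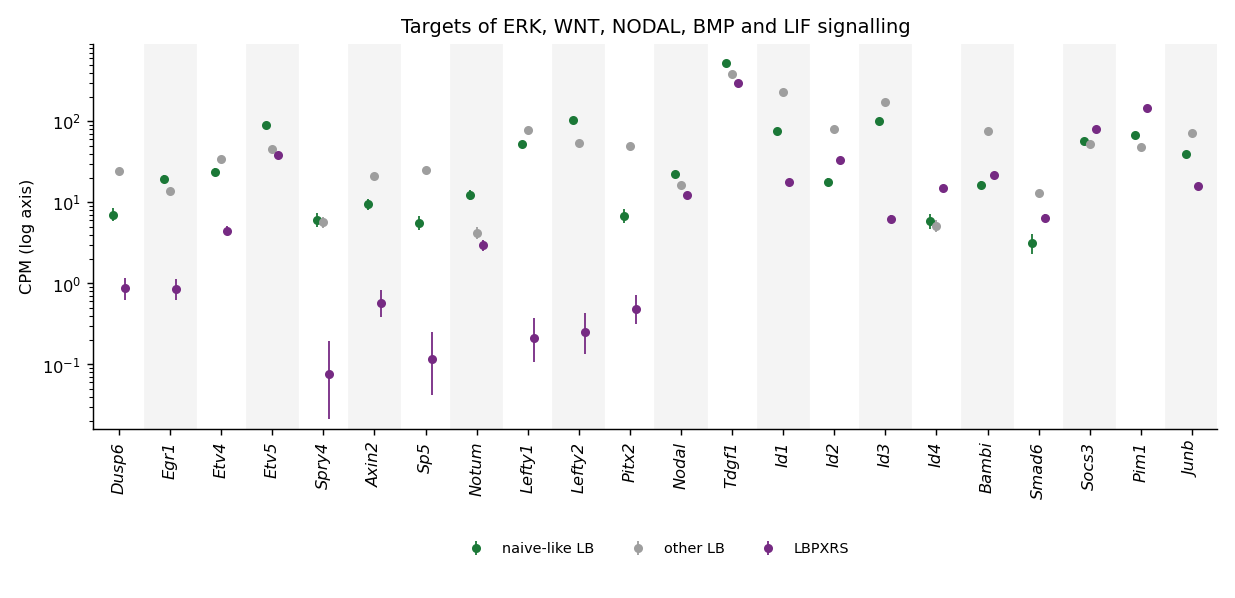
CPM (y axis, log scale) of 22 targets of ERK, WNT, NODAL, BMP and LIF signalling (x axis) in naive-like LB cells, other LB cells and LBPXRS, with exact Poisson 95% intervals as bars. LBPXRS lies below both LB groups for Dusp6, Egr1, Axin2, Sp5, Lefty1, Lefty2, Id1 and Id3, and above naive-like LB cells for Id2, Id4 and Pim1.

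Of the 10 smallest log2 ratios of LBPXRS to naive-like cells, that of Trh, which is on no list, was the lowest at -8.34, and they included Dppa2 of the core list at -3.83. Trh (ENSMUSG00000005892), the precursor of thyrotropin-releasing hormone, stood at 543 CPM (532 to 554) in naive-like cells, 197 CPM (192 to 202) in other LB cells and 0.675 CPM (0.470 to 0.939) in LBPXRS. It was found after thinning in 87.0% of naive-like cells (84.0 to 89.6), 20.1% of streak or mesoderm cells and 0.797% of cells in LBPXRS (0.488 to 1.23), while unthinned shares were 94.0%, 32.3% and 1.11%. Gpx2, a glutathione peroxidase, stood at 138, 37.5 and 7.31 CPM, and Plac8 at 78.8, 65.2 and 1.54 CPM. In the Calb2 group Trh stood at 355 CPM and Gpx2 at 161 CPM, above the naive-like cells for Gpx2, and Trh stood at 405 CPM in the cells grouped by Fgf5 and Pou3f1. Plac8 differed little between naive-like and other LB cells. The pseudogene Ftl1-ps1, which shares reads with Ftl1 and is uncertain for that reason, stood at 4627 CPM in naive-like cells and 75.3 CPM in LBPXRS.

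In the other direction, Vax2, a homeobox gene, stood at 66.7 CPM (64.5 to 69.0) in LBPXRS, 2.23 CPM (1.57 to 3.08) in naive-like cells and 0.623 CPM (0.369 to 0.984) in other LB cells. AA467197 stood at 68.9, 1.57 and 1.56 CPM, and the water channel gene Aqp3 at 56.7, 3.62 and 2.42 CPM. Genes of the integrated stress response had a median of 0.96, with 4 of 9 at least 2-fold higher and 0 lower. Ddit3, which encodes CHOP, stood at 130.3 CPM in LBPXRS against 13.2 CPM, and Nupr1 at 459.7 against 59.5 CPM. Basement membrane genes of the primitive endoderm list were higher too, with Sparc at 460.2 against 94.7 CPM and Col4a1 at 35.9 against 2.11 CPM, while the factors Gata4, Gata6 and Sox17 were at or below 1.06 CPM in both. The epithelial adhesion gene Epcam was lower, at 22.7 against 189 CPM. Restricting LBPXRS to the 2466 cells within the same UMI limits gave like values for Trh (log2 ratio -8.33, against -8.34), Vax2 (4.42, against 4.39) and Ddit3 (3.15, against 3.21). It moved the keratin Krt8 from -0.64 to -1.96.

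Within the 601 cells, genes varied unequally. Counts were thinned to 10000 UMIs, and the Fano factor (variance over mean) had a median of 1.09 over 4563 genes with a mean of at least 0.2. It was highest for Malat1, a nuclear RNA (24.1), the metallothioneins Mt1 (18.5) and Mt2 (12.6), Actb (16.1), Actg1 (9.51), the chaperone Hspa8 (9.61) and the mitochondrial genes mt-Co1, mt-Nd1, mt-Atp6 and mt-Co3. Among listed genes, the X-linked homeobox gene Rhox5 (8.35, found in 33.4% of cells), Lefty1 (3.75, in 23.3%) and Id1 (3.06, in 33.0%) were abundant in some cells and, after thinning, unseen in most. Without thinning, Lefty1 was found in 36.6% of naive-like cells and Id1 in 53.4%. Lefty1 and Lefty2 were seen together in 16.6% of cells, 1.58 times the product of their shares, and Id1 with Id3 in 20.5%, 1.39 times. Id3 and Lefty1 were seen together in 7.02%, 0.67 times the product, and Klf4 and Lefty1 in 7.36%, 0.74 times. These ratios describe cells of 1 library at equal depth.

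The cells were also ranked by their thinned UMIs of the 4 markers and cut into terciles of 194, 195 and 195 cells. The terciles are ranges and not types: 127 cells lay within 1 UMI of the lower cut and 123 within 1 UMI of the upper cut, and median depths were 27809.5, 27955 and 27855 UMIs. From the low over the middle to the high tercile, Tbx3 stood at 20.1, 27.0 and 37.7 CPM, Zfp57, a factor that protects imprints, at 53.7, 78.8 and 99.3 CPM, and the demethylase gene Tet2 at 8.32, 14.1 and 18.1 CPM. Lefty1 went the other way, at 75.1, 50.9 and 30.1 CPM, as did Pim2, at 30.8, 9.78 and 9.25 CPM. The 32 naive-like cells with 6 or 7 marker UMIs before thinning held 100 of the Pim2 UMIs. Id3 stood at 82.0, 89.8 and 137 CPM. Other naive genes differed less, with Klf2 at 472 and 598 CPM, Esrrb at 41.6 and 53.3 CPM and Dppa3 at 247 and 245 CPM in the low and high tercile. Of 6742 genes, 0.163% were at least 2-fold higher and 0.163% lower in the high than in the low tercile. The marker genes chose the terciles, and other genes were read from the same cells, so these values are descriptive.

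**Figure D4:**
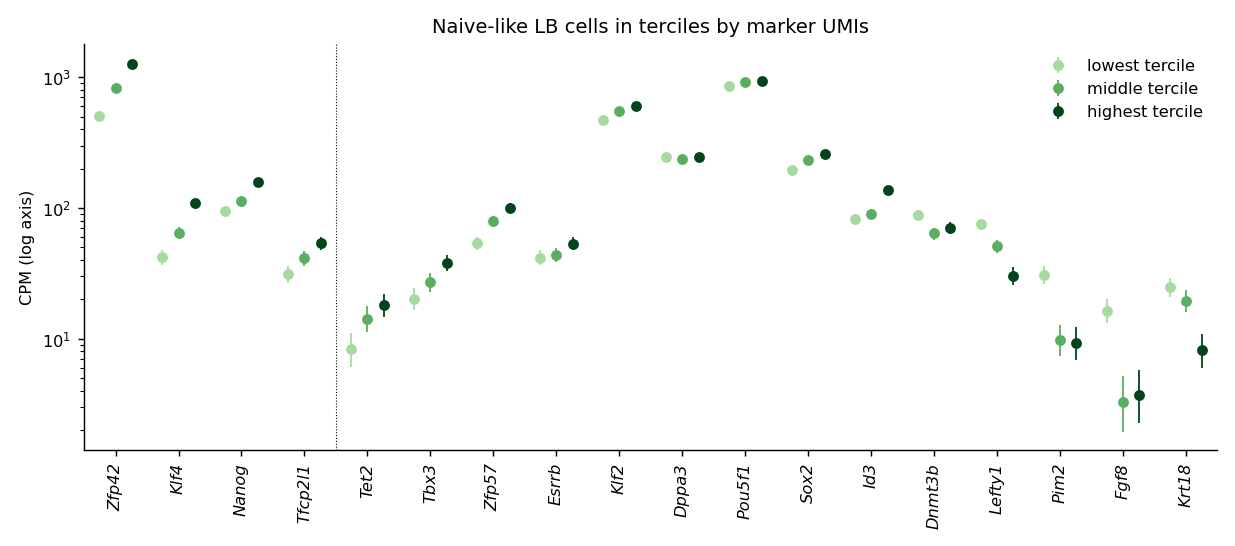
CPM (y axis, log scale) of 18 genes (x axis) in naive-like LB cells cut into low, middle and high terciles by thinned UMIs of the 4 marker genes, which stand left of the dotted line, with exact Poisson 95% intervals as bars. Tbx3, Tet2 and Zfp57 climb with the terciles, Lefty1, Pim2, Fgf8 and Krt18 are lowest in the middle or high tercile, and Pou5f1 and Dppa3 are nearly level.

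The minimum of 6 UMIs cut a continuous range. Among LB cells within the other limits, 31 had 4 or 5 marker UMIs, 32 had 6 or 7, and 569 had 8 or more. Esrrb stood at 10.5 CPM just below the minimum (7 UMIs, 4.24 to 21.7), 8.65 CPM just above it (5 UMIs, 2.81 to 20.2) and 47.3 CPM in cells with 8 or more (44.0 to 50.8). Pim2 stood at 129, 173 and 10.9 CPM, and Dnmt3b at 205, 202 and 69.1 CPM. In Esrrb, Pim2 and Dnmt3b, cells just inside the minimum were closer to those just outside it than to the rest of the naive-like cells. By ratio this was not so for Klf2, at 175, 339 and 548 CPM, or Sox2, at 70.7, 135 and 232 CPM. The median depth just inside the minimum was 19229.5 UMIs, against 23233 just below the minimum and 27963 with 8 or more. At the other limits, 82 naive-like cells held 1 UMI of the mesoderm genes and 49 held 1 UMI of Fgf5 or Pou3f1, and the largest share of Calb2 group UMIs among them was 0.0557%, beside 0.0558% at the lower end of the cells left out.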

How the data were processed

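Single-cell RNA data of the mouse line R1 were used, with 1 library per condition. The deposited matrices hold UMI counts per gene and barcode, made by the authors with Cell Ranger 4.0.0 and the build mm10, both per the submitters' processing notes, from 10x Genomics 3′ version 2 libraries per the labels' protocols. Settings of the cell calling are not given in the sources used here. Of 32285 gene identifiers, 32158 were found in GENCODE M21, which gave chromosomes; for 38 symbols on more than 1 row, the row with the most UMIs was used.

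Barcodes with at least 1000 genes and at most 10% mitochondrial UMIs were kept: 1783 of 2008 in LB and 2705 of 3111 in LBPXRS. UMIs were summed over the cells of a group and scaled to CPM. Ratios are log2((CPM + 1)/(CPM + 1)), which understates the change of low genes. Levels are compared within a gene between groups and not between genes. List medians used genes with a mean of at least 1 CPM; genes counted as 2-fold needed at least 10 CPM in either group and were called by size alone. Intervals are exact (Poisson for CPM, Clopper-Pearson for shares) at 95% and cover counting error only. The scripts were checked on simulated counts.

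Scrublet in scanpy 1.11.5, with a score cut of 0.25, called 19 LB cells (1.07%), 2 of them naive-like, and 92 LBPXRS cells (3.40%). These cells stayed in, and their removal was tried as an alternative. TMM factors came from edgeR 4.0.16. Promoter windows were RefSeq sequences of GRCm38.p6.

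The rule for the cells, the gene lists and the rule for named genes were chosen with earlier results of these data known. Genes are named in the text if they had 1 of the 10 largest or 10 smallest log2 ratios of a contrast at 50 CPM or more in either group, had 1 of the 10 highest Fano factors, or belonged to 1 of 23 lists or 1 of the 4 gene sets of the rule. The lists were naive, core and formative pluripotency, streak and mesoderm, trophoblast, primitive endoderm, neural, germ cell, fibroblast and 2-cell embryo. They also held ERK, WNT, NODAL, BMP and LIF targets, DNA methylation enzymes, adhesion, glycolysis, integrated stress response, dissociation stress, Y-linked genes, G2/M phase and S phase. Some genes are in more than 1 list. 1 marker result is not reported here.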

Additional observations from a re-analysis of the deposited data

How the results depend on the processing

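With 1 library per condition, no difference has a replicate check; depth, medium, substrate and the chromosome differences cannot be told apart from the libraries. No paired analysis was possible because each condition has 1 library. Share of naive-like cells: 30.8% with a minimum of 10 UMIs, 41.9% with the Calb2 group not left out and 37.7% in cells of 20000 to 35000 UMIs, a setting chosen after seeing the data. Naive-like against other LB cells: without a CPM minimum 604 genes were at least 2-fold higher and 1701 lower, by construction of more genes tested; against other LB cells within both lineage limits the counts were 59 and 275, the naive median was 0.55, and Gm13580 changed sign to -0.0046. The naive median was 2.52 with the Calb2 group not left out. The WNT median was -2.16 with a pseudocount of 0.1. TMM turned the S phase median from -0.14 to 0.058 and the G2/M median from -0.18 to 0.025. LBPXRS against naive-like cells: without a CPM minimum 1358 genes were higher and 879 lower, and the G2/M median was 0.12 in cells of 20000 to 35000 UMIs. The share of cells with Esrrb was 21.2% in naive-like cells and 26.4% in LBPXRS at 5000 UMIs, and 66.6% and 65.3% without thinning. Apart from construction, the cause was not tested. Of the list medians, counts and shares under the alternatives, 17 moved and 2 reversed, as given here. The other 494 are not thereby shown to be stable, since a list median was counted as moved only outside a wide interval of its own genes. Leaving out shared barcodes and leaving out cells under 0.5% mitochondrial UMIs were also chosen after seeing the data.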

Other observations

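Cell cycle genes were at like levels in the naive-like and other LB cells. The S phase list had a median log2 ratio of -0.14 and the G2/M list -0.18, beside -0.18 over all genes, and no gene of either list differed 2-fold. Glycolysis genes had a median of -0.45, with Ldha, which encodes lactate dehydrogenase A, at 578 CPM against 1204 CPM and the glucose transporter gene Slc2a1 at 46.7 against 123 CPM. Pfkp, a phosphofructokinase gene, was the one listed gene at least 2-fold higher, at 66.7 against 32.0 CPM. In LBPXRS, Slc2a1 stood lower still, at 19 CPM, and Ldha at 644 CPM.

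Dazl, an RNA-binding protein gene of germ cells, stood at 5.61 CPM in naive-like cells (4.53 to 6.87), 1.45 CPM in other LB cells (1.05 to 1.96) and 30.7 CPM in LBPXRS (29.2 to 32.2). Rhox5, a homeobox gene of the same list, stood at 173, 64.2 and 133 CPM. The trophoblast factor gene Gata2 had 9 UMIs in naive-like cells (0.543 CPM) and stood at 26.8 CPM in LBPXRS, while Krt8 and Krt18 were low in both, at 16.8 and 17.4 CPM in naive-like cells and 10.4 and 15.3 CPM in LBPXRS.

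The remaining lists are given by their medians and counts. The germ cell list had a median of 0.94 for naive-like over other LB cells, or 0.22 when these were limited to cells within both lineage limits, and -0.29 for LBPXRS over naive-like cells. The trophoblast list had -0.98 (-0.35 within the lineage limits) and 0.27, the primitive endoderm list -1.69 and 1.93 (over 8 and 6 genes; -1.06 and 0.57 without a CPM minimum), and the adhesion list -0.88 and -1.26. Adhesion genes at least 2-fold lower numbered 3 of 7 in the first comparison and 4 of 6 in the second, among them Epcam in the second. The dissociation stress list had 0.11 and -0.17, the first running from -0.13 to 0.36 over the settings, the integrated stress list 0.28 in the first comparison, the glycolysis list -0.38 in the second, and the S phase and G2/M lists -0.28 and -0.18 in the second. Of the 5 DNA methylation genes, 4 reached 10 CPM, of which 2 were at least 2-fold higher in naive-like than in other LB cells and 1 was at least 2-fold lower in LBPXRS than in naive-like cells. The neural list had 2 genes at 10 CPM in the first comparison, 1 of them higher and 1 lower, and the fibroblast list had 1, which was lower. The 2-cell embryo list had 3 UMIs in all in the naive-like cells, over 15 genes of the table.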
